A study of Mus musculus with 20 samples.

Results

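The RNA of the posterior eyecup (RPE and choroid) of VAS Stra6-/- mice, which lack the membrane receptor that takes retinol into the eye, was compared with that of VAD WT mice, which keep the receptor and ate no vitamin A. The comparison holds 10 of the 20 libraries of the series, 5 in each group, and was made across all genes. VAS Stra6-/- mice carried 2 disrupted *Stra6* alleles on a C57BL/6 background and ate the vitamin A sufficient (VAS) diet with 4 IU vitamin A per g. VAD WT mice were C57BL/6 with intact *Stra6* and ate the vitamin A deficient (VAD) diet with 0 IU per g. Both groups had standard chow until weaning and then their diet for 12 weeks, and by the study's account each library holds the RPE and choroid of both eyecups of 1 mouse, freed of muscle, connective tissue and the anterior segment and peeled from the neural retina after dispase. By that account each replicate is a separate mouse. Whether mice of a group shared litters or cages is not given in the sources used here. The labels name no tissue-specific deletion of *Stra6*. Genotype and diet change at once between the groups, and so do sex-linked transcripts, so the part of each cannot be told apart. The 5 VAS WT libraries, wild type on the VAS diet, serve as a reference and are given beside the values. Retinoid content was not part of the files analysed here, so these data do not by themselves show how far the eyes of either group were deprived of vitamin A. The study measured it by HPLC. It reports that diet left ocular retinoids of WT mice largely unchanged, while those of Stra6-/- mice were significantly lower on both diets.

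Vitamin A reaches the eye as retinol bound to RBP4 in blood. STRA6 in the basolateral membrane of the RPE takes it up, LRAT esterifies it for storage, and RPE65 turns the ester into the cis-retinoid from which visual chromophore is made for rods and cones. A second route leads from retinol through retinal to retinoic acid, which binds nuclear receptors and sets gene expression in epithelia, among them those of the ocular surface. The RPE also makes melanin, feeds glucose to photoreceptors, engulfs their shed outer segments and closes the outer blood-retina barrier.

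The total of recovered reads was 13331903 to 21790795 per library, with a median of 17368181.5 over the 10 libraries. Values are normalized values, that is, reads divided by 1 size factor per library, and lists of 5 values run from replicate 1 to replicate 5. Fold changes are differences of log2(normalized value + 1), VAS Stra6-/- minus VAD WT, from limma fitted to 18807 genes, given with their standard error (SE). A gene was called at an adjusted p under 0.05 (Benjamini-Hochberg over all genes tested). The targeted gene *Stra6* lies on chromosome 9, 58063788 to 58153996 of GRCm38 (plus strand). It had values of 693, 1340.1, 697, 1529 and 669 in VAD WT and of 564, 599, 648, 642 and 694 in VAS Stra6-/-, where reads remained in every library. The VAS WT mean was 2591 ± 149 (SD, n = 5), and both groups stood below it, with log2 differences of -2.04 in VAS Stra6-/- and -1.49 in VAD WT. Between the 2 groups the ranges overlapped, and the log2 fold change was -0.55 (SE 0.18, adjusted p = 0.0179, limma). It was -0.13, not called, against VAD WT replicates 1, 3 and 5 and -1.19 against replicates 2 and 4, and without replicate 2 alone it was -0.42 and no longer called (adjusted p = 0.0503, limma).

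The 5 VAD WT libraries were not alike. Replicates 1, 3 and 5 resembled each other, and so did replicates 2 and 4. The chi-square per gene between recovered reads, which is 1 for sampling noise, was 7.11 to 11.1 within these sets and 161 to 203 across them, and 3.39 to 8.84 within VAS Stra6-/-. *Xist*, expressed from the inactive X chromosome of females, had values of 174, 10912, 194, 11767 and 234 in VAD WT and of 16706, 16123, 18052, 15320.2 and 16038 in VAS Stra6-/-. The Y-linked *Ddx3y* had values of 1041, 75.2, 1064, 80.5 and 1133 in VAD WT and of 1.02, 0, 0, 0 and 0 in VAS Stra6-/-. *Kdm5d* and *Uty*, also on the Y chromosome, had no read in VAS Stra6-/-, and *Eif2s3y* reached at most 4.39 there. So VAD WT replicates 2 and 4 are nearer to VAS Stra6-/- in these transcripts than replicates 1, 3 and 5 are, although they too hold Y-linked reads. Whether each of these 2 libraries holds RNA of a single mouse was not tested. VAS WT had *Xist* values of 7.69 to 38.4 and *Ddx3y* values of 981 to 1193, nearer to replicates 1, 3 and 5, so differences of the knockout from VAS WT also cannot be told apart from those of sex-linked transcripts. The results on gene lists are therefore also given against replicates 1, 3 and 5 alone and against replicates 2 and 4 alone, and so are those of single genes where the sets disagree. The tissue label was checked as well. RPE genes were abundant in all 10 libraries, but keratins of the ocular surface were more so: *Krt12* and *Krt5* ranked first and second by reads in both groups. Less RNA of a cell type per library can mean fewer of its cells or less RNA per cell, which bulk RNA cannot separate.

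**Figure D1:**
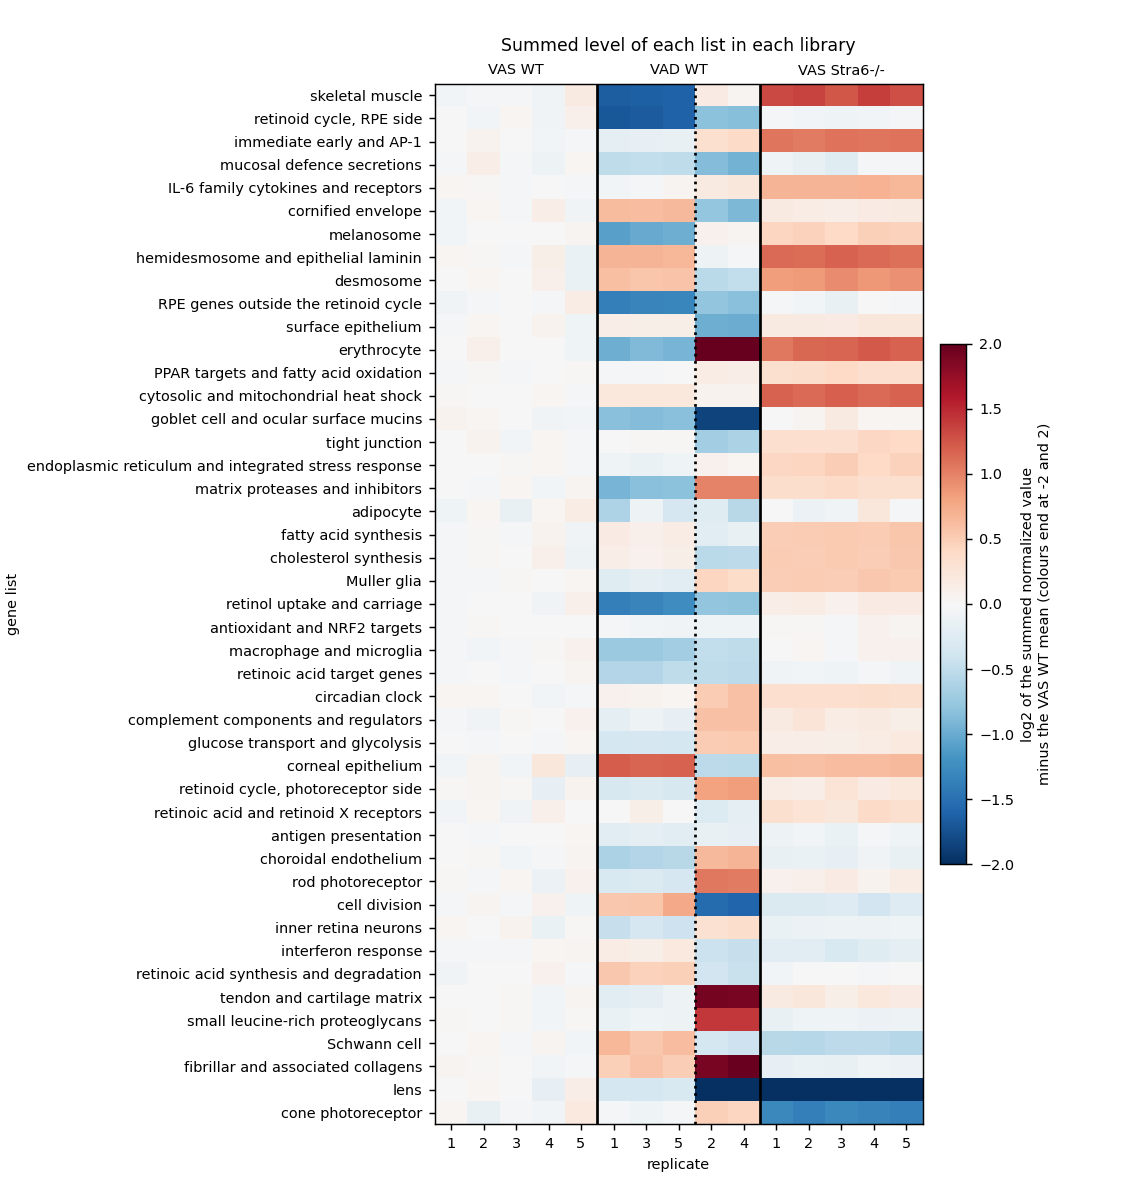
Summed normalized value of each gene list (rows) in each library (columns, by replicate number), as log2 difference from the VAS WT mean. The 5 VAS Stra6-/- columns look alike, whereas VAD WT splits at the dotted line into replicates 1, 3 and 5 and replicates 2 and 4, with the cone list lowest in VAS Stra6-/- and muscle, heat shock and immediate early lists highest there, and the lens list low in both VAS Stra6-/- and replicates 2 and 4.

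Of the 18807 genes tested, 35.3% were called between the groups: 3793 (20.2%) were higher and 2837 (15.1%) were lower in VAS Stra6-/- than in VAD WT at an adjusted p under 0.05 (limma). In 1092 of the higher and 555 of the lower genes the log2 fold change exceeded 1, and in 296 and 75 it exceeded 2. Among the called genes, 2664 of the higher (14.2% of all tested) and 1405 of the lower (7.47%) had no overlap between the 5 values of one group and those of the other. Tested against the null of a log2 fold change of 1, rather than 0, 119 genes were called higher and 31 lower. The median log2 fold change over all genes was 0.03. The excess of higher over lower genes was not found in the count tests at this threshold. There, edgeR called 3112 genes higher and 3372 lower, and DESeq2 3466 and 3493. Beyond a log2 fold change of 1 these were 745 and 724 in edgeR and 792 and 757 in DESeq2. Beyond 2 they were 172 and 114, and 162 and 113. In limma, against replicates 1, 3 and 5 alone, 53.3% of genes were called, 5623 (29.9%) higher and 4399 (23.4%) lower. Against replicates 2 and 4 alone, 37.4% were, 3849 (20.5%) higher and 3188 (17.0%) lower. The 2 sets were picked from these same values after they were seen, which by itself lowers the spread within each. The median SD of log2 values was 0.428 over all 5 VAD WT libraries, 0.181 in replicates 1, 3 and 5 and 0.109 in replicates 2 and 4. Calls against a set are therefore a description and not a check of the calls over all 5. The counts below are to be read against these shares. The VAS WT reference shows both groups apart from it: 5010 genes (26.6%) were called between VAS Stra6-/- and VAS WT and 1652 (8.78%) between VAD WT and VAS WT, of which 618 (3.29% of all) were higher and 1034 (5.50%) lower in VAD WT. These last comparisons share the VAS WT libraries, so their values are only set side by side.

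**Figure D2:**
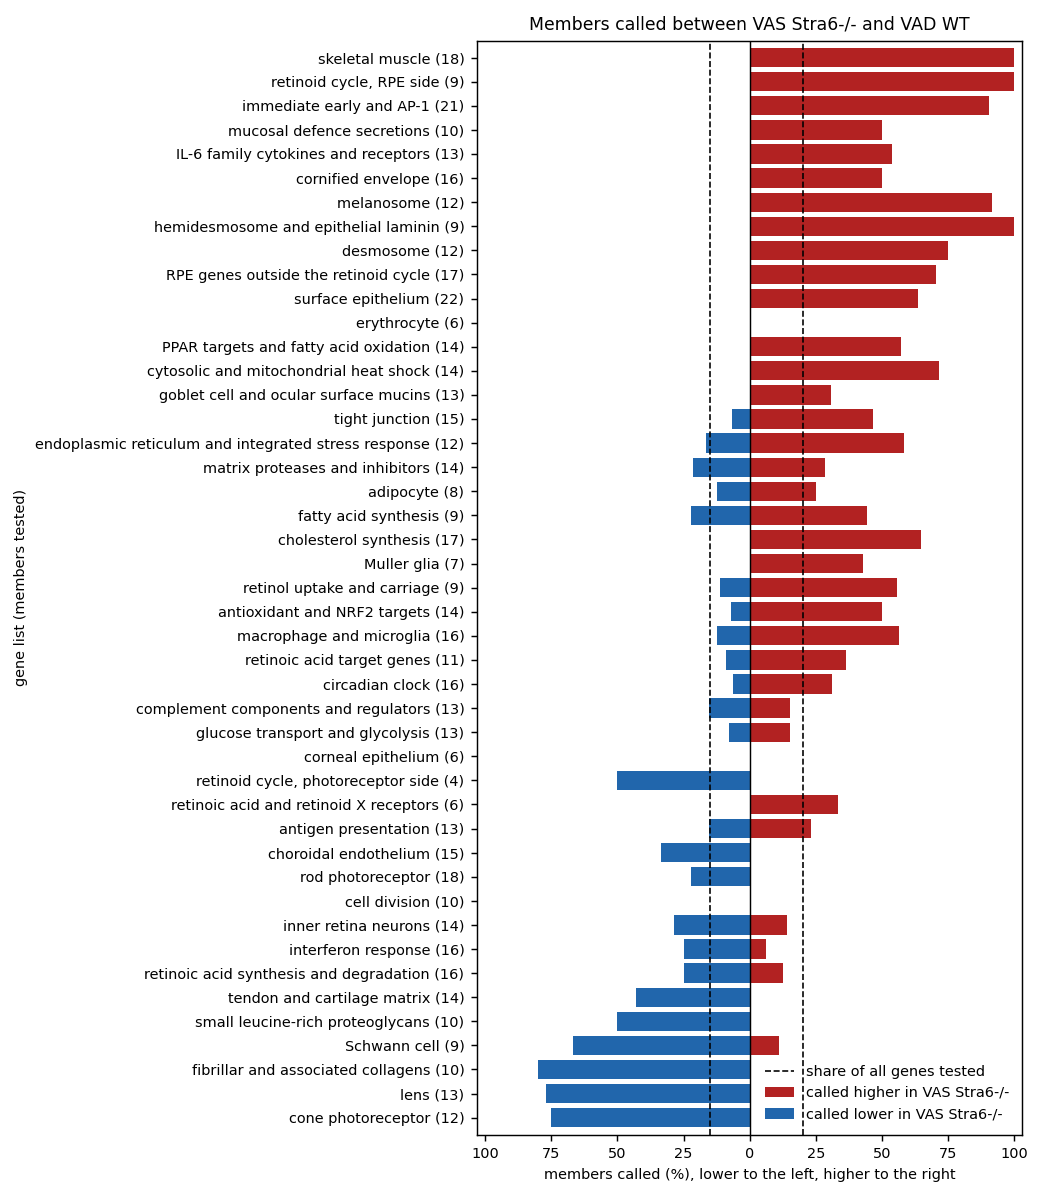
Share of the tested members of each gene list called higher (right) or lower (left) in VAS Stra6-/- against VAD WT, with the number of members in brackets and dashed lines at the shares of all 18807 genes, 20.2% and 15.1%. Muscle, RPE retinoid cycle and hemidesmosome lists were called higher in full, and cone, lens and collagen lists were mostly called lower.

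The genes of the RPE retinoid cycle were all called higher in VAS Stra6-/- than in VAD WT, 9 of 9, with a median log2 fold change of 1.34. Set against VAS WT, the median was -0.03 in VAS Stra6-/- and -1.11 in VAD WT, so that the median in the knockout lay near the reference and that on the deficient diet below it. Against VAS WT 3 members were called lower and 0 higher in the knockout, and 9 lower and 0 higher in VAD WT. Of all genes 10.8% and 5.50% were called lower. *Lrat*, which esterifies retinol, lies on chromosome 3, 82892579 to 82903973 of GRCm38 and showed the largest difference of the list. Its values were 263, 821, 414, 941 and 317 in VAD WT and 2774, 2550.4, 2481, 2514 and 2484 in VAS Stra6-/-, without overlap, a log2 fold change of 2.40 (SE 0.24, adjusted p = 9.79e-08, limma). *Rpe65*, the retinoid isomerase, stood at 1503, 3908, 1545, 3945 and 1107 in VAD WT and at 5892, 5864, 5784, 5598 and 5979.6 in VAS Stra6-/-. Replicates 2 and 4 of VAD WT were the highest of their group for both genes and still below each knockout library. The log2 fold change of *Rpe65* was 1.48 (SE 0.24, adjusted p = 6.95e-05, limma), being 2.09 against replicates 1, 3 and 5 and 0.57 against replicates 2 and 4.

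The other enzymes and carriers of the cycle were called higher too. *Rgr*, a retinal-binding opsin of the RPE and Müller glia, had values of 7157, 13208, 7039, 12468 and 7691 in VAD WT and of 28747, 28919, 29599, 28341 and 30066 in VAS Stra6-/-, giving a log2 fold change of 1.67 (SE 0.15, adjusted p = 2.93e-08, limma). The cis-retinol dehydrogenase *Rdh5* had values of 2646, 3354, 2761, 3382 and 2711 and 7661, 7275, 7174, 7869.6 and 7323, with a log2 fold change of 1.34 (SE 0.08, adjusted p = 1.16e-10, limma). In *Rdh5* the VAD WT sets lay close to each other, and the knockout fell below VAS WT too, with a log2 difference of -0.43 against -1.77 for VAD WT. *Rdh10*, a retinol dehydrogenase, stood at 235, 1181, 355, 1418 and 302 in VAD WT and at 1733, 1779, 1732, 1747 and 1714 in VAS Stra6-/-, a difference of 2.57 against replicates 1, 3 and 5 and of 0.43 against replicates 2 and 4. For *Rlbp1*, the binding protein of cis-retinoids, the ranges overlapped (3597 to 9287 in VAD WT, 9199.8 to 10436 in VAS Stra6-/-), and the difference against replicates 2 and 4 was 0.11. It was the one member not called against those replicates, where 8 of 9 members were called higher with a median of 0.57, and against replicates 1, 3 and 5, all 9 were, with a median of 1.46.

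Genes that move retinol into cells and through blood were measured beside *Stra6*. Of 9 genes, 5 were called higher and 1, *Stra6* itself, lower. The counts were 6 higher and 0 lower against VAD WT replicates 1, 3 and 5, and 5 higher and 2 lower against replicates 2 and 4. *Ttr*, transthyretin, which binds the RBP4 complex, stood at 12105, 21081, 13048, 19972 and 13495 in VAD WT and at 54376, 55196, 52519.6, 56019 and 56156 in VAS Stra6-/-, against 50631 ± 3275 (SD, n = 5) in VAS WT. Its log2 fold change was 1.82 (SE 0.14, adjusted p = 4.73e-09, limma), and the highest VAD WT library, at 21081, stood far below the lowest VAS Stra6-/- library, at 52519.6. *Rbp4* was low, at 23.7 to 97.5 and 33.8 to 57.9, and was not called (log2 fold change -0.03). The scavenger receptor *Scarb1*, which takes up carotenoids, was not called either, with a log2 fold change of 0.01.

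RPE genes outside the retinoid cycle were called higher in 12 of 17 members and lower in 0, with a median log2 fold change of 0.82. Beside VAS WT the median was -0.04 in the knockout and -0.85 in VAD WT, with 3 members called lower and 0 higher in the knockout and 11 lower and 0 higher in VAD WT. *Ptgds*, a prostaglandin synthase and retinoid carrier, had values of 39922, 46195, 40679.7, 43979 and 41179 in VAD WT and of 88805, 86161, 78882, 91357 and 86858 in VAS Stra6-/-, without overlap. *Slc16a8*, the lactate transporter of the RPE, stood at 2535, 2503, 2967, 2721 and 3032 and at 4970.1, 4799, 4283, 5416 and 5012. In both genes the 5 VAD WT values lay close together: the difference was 1.09 and 0.94 for *Ptgds* against the 2 sets, and 0.78 and 0.90 for *Slc16a8*. The chloride channel gene *Clic6* rose most in this list after *Ttr*, by 1.52 (SE 0.41, adjusted p = 0.00683, limma), but overlapped: VAD WT replicates 2 and 4, at 1769 and 1986, lay within or above the knockout range of 1600.4 to 1909. The count test of edgeR gave *Clic6* 0.90 (adjusted p = 0.0973) and so no call. *Otx2* and *Cldn19* differed by 0.00 and -0.06 and were not called. *Serpinf1*, which encodes the factor PEDF, was not called, with a log2 fold change of -0.70, and its values were 4309, 14862, 4401, 15171 and 4236 in VAD WT against 4245 to 4501 in VAS Stra6-/-. In DESeq2 its log2 fold change was -0.98 (adjusted p = 0.00843), and it was called. Against replicates 1, 3 and 5, 15 members were called higher and 1 lower. Against replicates 2 and 4 there were 8 higher and 3 lower.

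**Figure D3:**
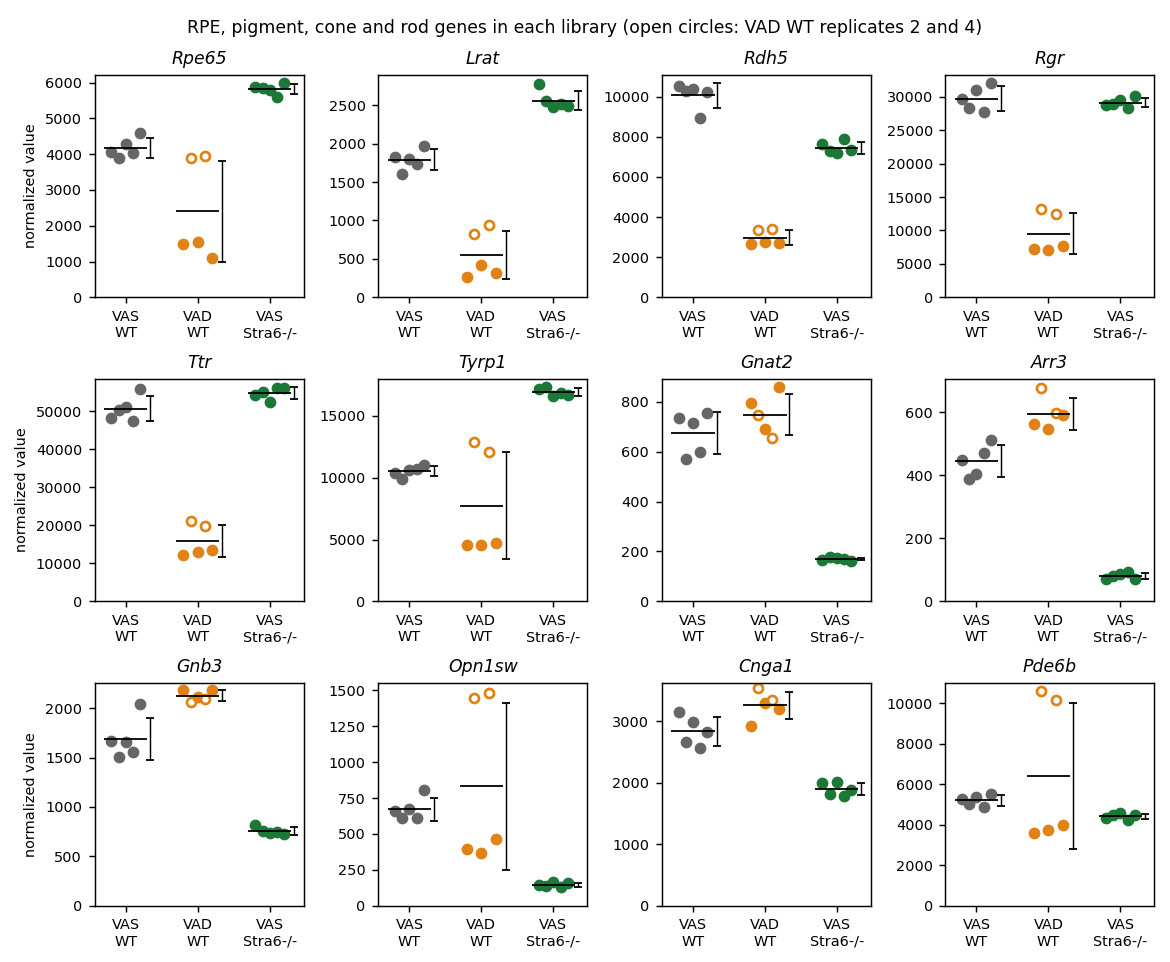
Normalized values of RPE, pigment, cone and rod genes in each library of VAS WT, VAD WT and VAS Stra6-/-; bars mark means, error bars the SD (n = 5), and open circles VAD WT replicates 2 and 4. RPE and pigment genes are higher in every VAS Stra6-/- library than in VAD WT, the 4 cone genes are lower, and of the rod genes *Cnga1* is lower while *Pde6b* of VAS Stra6-/- lies between the sets of VAD WT libraries.

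Melanosome genes, which make and store melanin in RPE and choroidal melanocytes, were called higher in 11 of 12 members with a median log2 fold change of 0.99. The only member not called was *Rab38*, at -0.16. *Tyr*, the rate-limiting enzyme of melanin synthesis, had values of 321, 821, 362, 1012 and 283 in VAD WT and of 1269.7, 1331, 1215, 1349 and 1269 in VAS Stra6-/-, giving a log2 fold change of 1.40 (SE 0.24, adjusted p = 1.31e-04, limma). *Tyrp1* of the same pathway stood at 4539, 12869.5, 4559, 12068 and 4696 and at 17215, 17318, 16617, 16894 and 16721, with a log2 fold change of 1.31 (SE 0.23, adjusted p = 1.29e-04, limma). Both were higher in each knockout library than in each VAD WT library, and the knockout also stood above VAS WT, by 0.62 for *Tyr* and 0.69 for *Tyrp1*, of which the second was called. As log2 difference from the VAS WT mean, the summed level of the list was 0.40 to 0.47 in VAS Stra6-/-, -1.09 to -0.98 in VAD WT replicates 1, 3 and 5 and 0.06 to 0.09 in replicates 2 and 4. Against replicates 1, 3 and 5 alone, 11 members were called higher, with a median of 1.49. Against replicates 2 and 4 alone, 10 members were still called higher, with a median of 0.40.

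The promoters of *Tyr* and *Tyrp1* (RefSeq, GRCm38.p6, 250 bases before to 50 after the start, both read 5′ to 3′ along the gene) are shown because these genes rose together and their starts hold the core of the M-box, the hexamer by which MITF binds pigment genes. Capitals mark CATGTG or its reverse complement CACATG; the *Tyr* window is chr7:87493463-87493762 (minus strand) and the *Tyrp1* window chr4:80833963-80834262 (plus strand).
*Tyr*: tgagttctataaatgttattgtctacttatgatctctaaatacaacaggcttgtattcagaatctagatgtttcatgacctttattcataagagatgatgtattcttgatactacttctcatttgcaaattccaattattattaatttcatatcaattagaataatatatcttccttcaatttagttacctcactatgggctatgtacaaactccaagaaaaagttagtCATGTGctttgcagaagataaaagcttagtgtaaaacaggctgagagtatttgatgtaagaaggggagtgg
*Tyrp1*: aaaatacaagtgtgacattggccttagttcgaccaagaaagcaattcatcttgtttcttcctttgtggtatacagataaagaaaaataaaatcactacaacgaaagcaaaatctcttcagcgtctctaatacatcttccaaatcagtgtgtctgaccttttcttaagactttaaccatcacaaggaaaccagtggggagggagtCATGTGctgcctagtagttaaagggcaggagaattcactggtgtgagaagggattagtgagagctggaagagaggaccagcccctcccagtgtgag
The match began 21 bases before the start of *Tyr* and 46 before that of *Tyrp1*. Of the 12 melanosome genes 7 had a promoter in the table and 6 of these held the hexamer on either strand, as did 14.2% of all 32851 promoters and 3 of 7 RPE retinoid cycle genes. A match is a description of the letters and not evidence of binding. *Mitf* itself had values of 454, 1213, 444, 1099.8 and 389 in VAD WT and of 1161, 1112, 1073, 1155 and 1129.8 in VAS Stra6-/-, overlapping, with a log2 fold change of 0.82 (SE 0.23, adjusted p = 0.00755, limma).

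Cone genes went the other way. Of 12 members 9 were called lower in VAS Stra6-/- and none higher, with a median log2 fold change of -1.45. The median against VAS WT was -1.45 in the knockout and 0.02 in VAD WT. *Gnat2*, the alpha subunit of cone transducin on chromosome 3, 108092789 to 108101432 of GRCm38, had values of 793, 745, 689.6, 655 and 857 in VAD WT and of 168, 178, 173, 169.8 and 164 in VAS Stra6-/-, giving a log2 fold change of -2.12 (SE 0.12, adjusted p = 4.41e-11, limma). *Gnb3*, its beta subunit, stood at 2179.8, 2065, 2113, 2093 and 2182 and at 822, 753, 731, 747 and 729, a log2 fold change of -1.49 (SE 0.08, adjusted p = 3.38e-11, limma). In both genes all 5 VAD WT libraries lay close together and far above the knockout, including the sets that differ elsewhere.

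Arrestin 3 (*Arr3*), which quenches cone opsin, had values of 565, 677, 546, 599 and 591 in VAD WT and of 72.1, 81.2, 86.4, 92.9 and 71.2 in VAS Stra6-/-, giving a log2 fold change of -2.87 (SE 0.49, adjusted p = 1.06e-04, limma). The short-wave opsin *Opn1sw* stood at 394, 1449, 366, 1485 and 463 and at 142, 135, 165, 130.1 and 156, so that VAD WT replicates 2 and 4 were more than 3 times as high as the other 3, and all 5 lay above the knockout. Its log2 fold change was -2.22 (SE 0.35, adjusted p = 3.96e-05, limma). The middle-wave opsin *Opn1mw* was not called: VAD WT values of 70.7, 269.9, 69.5, 236 and 80.6 overlapped the knockout range of 67.0 to 96.6, and the difference was 0.14 against replicates 1, 3 and 5 and -1.63 against replicates 2 and 4. The channel subunit *Cnga3* was low, at 36.5, 44.3, 51.1, 47.1 and 52.0 in VAD WT and 3.05, 16.5, 7.12, 4.22 and 0.937 in VAS Stra6-/-, with a log2 fold change of -3.05 (SE 0.55, adjusted p = 1.85e-04, limma). The phosphodiesterase subunits *Pde6c* and *Pde6h* had log2 fold changes of -1.60 and -1.42, without overlap. *Thrb* and *Slc24a2*, which other retinal cells express too, differed by 0.04 and 0.18 and were not called. Against replicates 1, 3 and 5 alone, 8 cone genes were called lower and 2, *Thrb* and *Slc24a2*, higher, and against replicates 2 and 4 alone, all 12 were lower.

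The promoter of *Gnat2* (chr3:108092816-108093115, plus strand) is shown because *Gnat2* was lower against both VAD WT sets and its window holds TAATCC, the homeodomain core bound by the photoreceptor factor CRX, here on the opposite strand as GGATTA and in capitals.
*Gnat2*: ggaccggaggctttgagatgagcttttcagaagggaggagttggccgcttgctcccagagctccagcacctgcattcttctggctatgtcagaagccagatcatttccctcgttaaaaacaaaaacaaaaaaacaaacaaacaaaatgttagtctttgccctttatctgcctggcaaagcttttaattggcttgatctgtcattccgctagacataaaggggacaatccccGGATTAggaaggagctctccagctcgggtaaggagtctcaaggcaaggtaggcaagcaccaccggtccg
The hexamer was found on either strand in 2 of 8 cone promoters, 4 of 12 rod promoters and 7.06% of all promoters.

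Rod genes were mostly not called. Of 18 rod members 4 were called lower and none higher, beside 15.1% of all genes called lower, with a median log2 fold change of -0.15. *Pde6b*, a catalytic subunit of the rod phosphodiesterase, had values of 3582, 10615, 3722, 10141 and 3997 in VAD WT and of 4347, 4474, 4570.4, 4257 and 4461 in VAS Stra6-/-, so that the knockout lay between the sets of VAD WT libraries. Its log2 fold change was -0.35 over all 5, 0.23 against replicates 1, 3 and 5 and -1.23 against replicates 2 and 4. Against the former 13 rod genes were called higher and 3 lower, and against the latter all 18 were called lower. The sign of most rod differences thus turned with the VAD WT libraries used. *Cnga1* and *Cngb1*, the subunits of the rod channel, and *Gngt1*, the gamma subunit of rod transducin, were the exceptions, lower against both sets, with log2 fold changes of -0.78, -0.63 and -0.66 and no overlap. *Cnga1* had values of 2925, 3540.3, 3293, 3344 and 3208 in VAD WT and of 1997, 1813, 2012, 1794 and 1879 in VAS Stra6-/-. Of 4 retinoid genes of photoreceptors 2, *Abca4* and *Rdh12*, were called lower. Against replicates 1, 3 and 5 of VAD WT the photoreceptor retinoid genes gave 2 higher and 1 lower, and against replicates 2 and 4, 0 higher and 4 lower. Without VAD WT replicate 2 or 4, *Rdh12* was at -0.19 and -0.22 and not called. *Abca4*, the retinoid flippase of the photoreceptor disc, stood at 6089, 6650.0, 6134, 7092 and 6058 and at 4596, 4607, 4972, 4627 and 4826, a log2 fold change of -0.44 (SE 0.07, adjusted p = 2.78e-05, limma).

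Among inner retina genes 4 of 14 were called lower and 2 higher. The sets differed here: 7 higher and 4 lower against replicates 1, 3 and 5, with a median of 0.18, and 2 higher and 11 lower against replicates 2 and 4, with a median of -0.91. *Pcp2* of rod bipolar cells fell by 1.11 on the log2 scale, from 571, 695, 484, 736 and 447 in VAD WT to 289, 243, 260.3, 225 and 324 in VAS Stra6-/-. *Tfap2b* and *Grm6*, markers of amacrine and bipolar cells, fell too, with log2 fold changes of -0.63 and -0.61. *Trpm1*, used by both ON bipolar cells and melanocytes, rose by 0.49. Of 7 Müller glia genes 3 were called higher, led by *Car14*, a carbonic anhydrase that the RPE shares, with 1.51, whereas *Aqp4* and *Kcnj10*, more restricted to glia, differed by -0.37 and -0.37 and were not called. Müller glia genes gave 3 higher and 0 lower beside replicates 1, 3 and 5, and 3 higher and 1 lower beside replicates 2 and 4. *Gfap*, which reactive Müller glia express, was not called, with values of 2028, 613, 1615, 769 and 1924 in VAD WT and 1801 to 1905 in VAS Stra6-/-.

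Retinoic acid enzymes, receptors and targets moved in both directions. Of 16 genes of retinoic acid synthesis and degradation 2 were called higher and 4 lower. By set, 2 higher and 8 lower were called against replicates 1, 3 and 5, and 5 higher and 2 lower against replicates 2 and 4. *Aldh1a3*, a retinal dehydrogenase, had values of 1286, 1054, 1416, 1048 and 1568 in VAD WT and of 3125, 3099, 3192, 3139 and 3166 in VAS Stra6-/-, giving a log2 fold change of 1.32 (SE 0.10, adjusted p = 1.68e-09, limma). Its relative *Aldh1a2* stood at 561, 1063, 579, 1168 and 595 and at 419.5, 463, 486, 508 and 417, a log2 fold change of -0.72 (SE 0.17, adjusted p = 0.00207, limma). The 2 dehydrogenases thus differed in opposite directions, each without overlap. *Aldh1a1* of the same family was called lower by 0.45 with overlapping ranges, being -0.80 against replicates 1, 3 and 5 and 0.07 against replicates 2 and 4. Without replicate 1, 3 or 5 of VAD WT *Aldh1a1* was no longer called, at -0.35, -0.37 and -0.38. *Crabp1*, a cytosolic carrier of retinoic acid, fell by 1.25, with values of 66.8 to 219 in VAD WT and of 35.1 to 69.1 in VAS Stra6-/-, which overlapped.

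Direct targets of retinoic acid signalling gave no common direction. *Cyp26a1*, which degrades retinoic acid and is among its most responsive targets, had values of 29.5, 276, 51.1, 369.7 and 24.7 in VAD WT and of 54.9, 42.8, 55.9, 55.7 and 21.5 in VAS Stra6-/-, against 172 to 236 in VAS WT. The knockout was near VAD WT replicates 1, 3 and 5 and far below replicates 2 and 4, and the difference over all 5, -0.91, was not called. In edgeR it was -1.75 (adjusted p = 0.0170) and was called. *Cyp26b1* was called higher by 0.98, with values of 153, 972, 248, 875 and 272 in VAD WT that bracket the knockout range of 644 to 836. The call of *Cyp26b1* was lost in edgeR, at 0.57 (adjusted p = 0.207), and without replicate 1, 3 or 5 of VAD WT, at 0.64, 0.81 and 0.85. *Rarb* and *Dhrs3*, targets in many tissues, differed by 0.23 and 0.12 and were not called. *Nrip1*, a nuclear receptor corepressor and target of retinoic acid, stood at 64.8, 273, 72.4, 271 and 52.0 in VAD WT and at 594, 587, 705, 565 and 546 in VAS Stra6-/-, giving a log2 fold change of 2.39 (SE 0.42, adjusted p = 1.56e-04, limma), the knockout also being 2.38 above VAS WT on the log2 scale. The difference was 3.24 against replicates 1, 3 and 5 and 1.13 against replicates 2 and 4. In the whole target list 4 of 11 were called higher and 1 lower. Its largest rise was that of *Lrat*, at 2.40, which the RPE retinoid cycle list holds too. For the targets the sets gave 5 higher and 0 lower (replicates 1, 3 and 5) and 5 higher and 2 lower (replicates 2 and 4). Of 6 receptors *Rxra* and *Rarg* were the ones called, both higher, by 0.69 and 0.51. Among receptors 3 higher and 0 lower were called against replicates 1, 3 and 5, and 2 higher and 1 lower against replicates 2 and 4.

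Stress genes were higher in VAS Stra6-/-. Of 14 cytosolic and mitochondrial heat shock genes 10 were called higher and none lower, with a median log2 fold change of 0.64. Beside VAS WT the median was 0.78 in the knockout and 0.00 in VAD WT. *Hspa1b*, an inducible chaperone of the HSP70 family, had values of 9979.6, 7502, 10664, 8341 and 10476 in VAD WT and of 45557, 42087, 43342, 43398 and 44525 in VAS Stra6-/-, giving a log2 fold change of 2.23 (SE 0.09, adjusted p = 2.13e-13, limma). The neighbouring *Hspa1a* stood at 4138, 3807, 3814, 4076 and 4069.7 and at 15749, 14783, 15208, 14644 and 15398, a log2 fold change of 1.93 (SE 0.07, adjusted p = 4.05e-14, limma). These 2 genes are near-identical, so the split of reads between them is uncertain, but both rose. The HSP110 gene *Hsph1* had values of 677, 1126, 790.3, 1168 and 678 and 3569, 3532, 3859, 3516 and 3654, and the HSP40 gene *Dnajb1* of 1243, 1372, 1409, 1238 and 1406 and 4764, 4648, 4689, 4917 and 4937. Their log2 fold changes were 2.07 (SE 0.12, adjusted p = 8.45e-11, limma) and 1.85 (SE 0.07, adjusted p = 1.03e-13, limma). Each of these 4 genes had its lowest knockout value above 3 times its highest VAD WT value. *Hspb1*, *Cryab*, *Hspe1* and *Hspa4l* were not called, and *Hspb1* had values of 20136, 7304, 20600.2, 7385 and 21121 in VAD WT and 14936 to 15628 in VAS Stra6-/-. Against replicates 2 and 4 alone, 13 members were called higher, and against replicates 1, 3 and 5 alone, 11 higher and 2 lower.

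Promoters of 3 of these heat shock genes are shown because the group moved together and its regulator HSF1 binds inverted repeats of GAA. The letters GAANNTTC, which are their own reverse complement, are in capitals. The windows are chr17:34972107-34972406 for *Hspa1a*, chr17:34959189-34959488 for *Hspa1b* and chr5:149636287-149636586 for *Hsph1*, all on the minus strand.
*Hspa1a*: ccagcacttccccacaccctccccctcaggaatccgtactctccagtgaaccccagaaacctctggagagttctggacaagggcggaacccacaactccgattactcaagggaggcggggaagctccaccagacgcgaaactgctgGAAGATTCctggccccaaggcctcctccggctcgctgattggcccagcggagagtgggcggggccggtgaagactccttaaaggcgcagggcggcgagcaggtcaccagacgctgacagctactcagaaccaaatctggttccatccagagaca
*Hspa1b*: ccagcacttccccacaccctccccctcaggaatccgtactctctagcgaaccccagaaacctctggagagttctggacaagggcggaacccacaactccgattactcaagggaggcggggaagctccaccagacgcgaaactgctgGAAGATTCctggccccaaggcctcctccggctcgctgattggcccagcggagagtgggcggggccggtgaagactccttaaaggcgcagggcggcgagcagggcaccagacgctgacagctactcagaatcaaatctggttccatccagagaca
*Hsph1*: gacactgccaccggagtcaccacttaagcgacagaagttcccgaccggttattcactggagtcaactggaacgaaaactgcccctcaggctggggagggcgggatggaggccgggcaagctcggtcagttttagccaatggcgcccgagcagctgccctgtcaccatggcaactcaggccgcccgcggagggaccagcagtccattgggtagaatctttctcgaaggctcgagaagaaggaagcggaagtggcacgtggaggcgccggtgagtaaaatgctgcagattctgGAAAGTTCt
*Hspa1a* and *Hspa1b* shared 296 of 300 bases in this window, with the match 104 bases before the start in both. In *Hsph1* it began 41 bases after the start. GAANNTTC was found in 8 of the 11 listed heat shock genes with a promoter in the table and in 7.86% of all promoters, and *Hspe1* and *Hspb1*, which were not called, are among the 8. *Dnajb1* held no match in its first listed window. *Hsph1*, like *Dnajb1*, has 2 windows in the table, of which the first is printed.

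**Figure D4:**
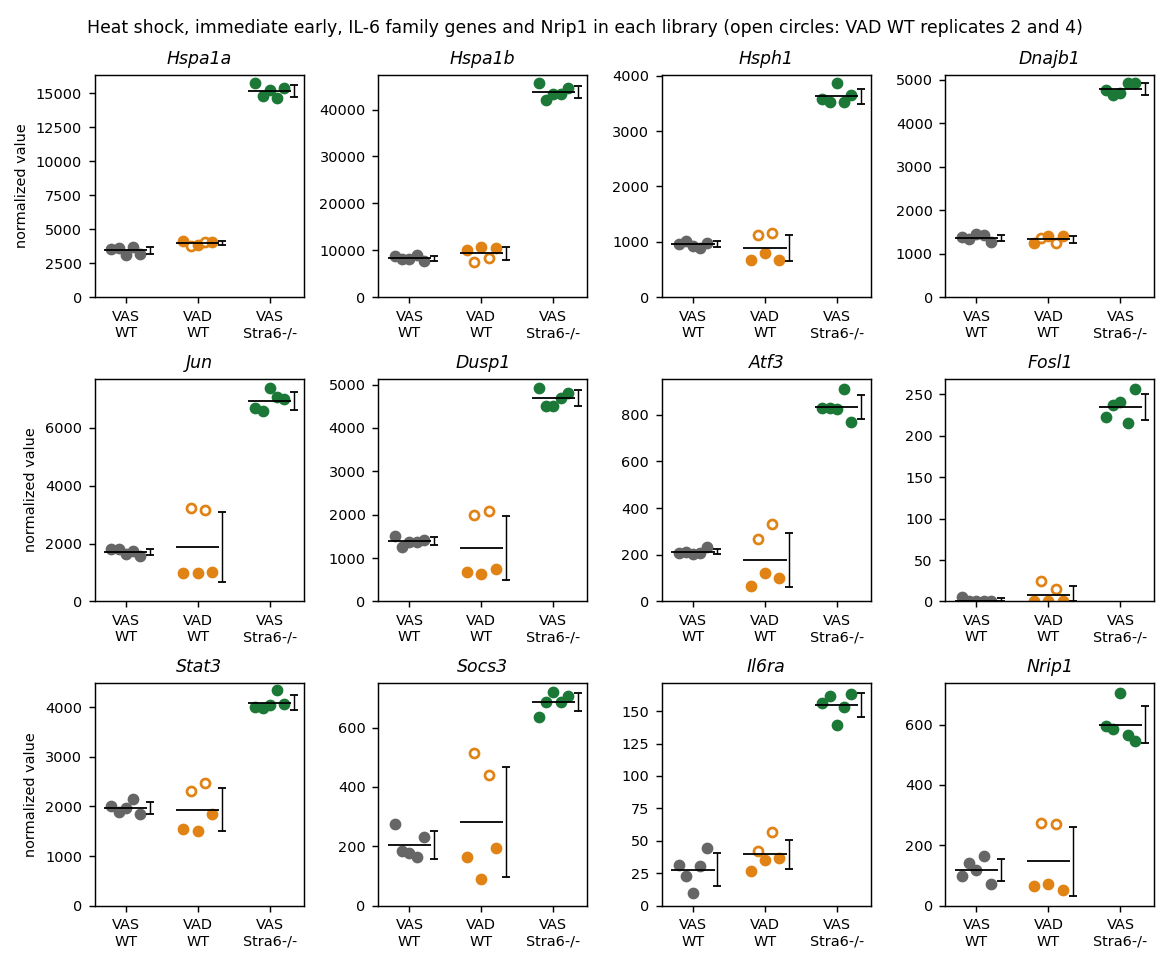
Normalized values of heat shock, immediate early and IL-6 family genes and of *Nrip1* in each library of VAS WT, VAD WT and VAS Stra6-/-; bars mark means, error bars the SD (n = 5, drawn no lower than 0), and open circles VAD WT replicates 2 and 4. In all 12 genes the 5 VAS Stra6-/- libraries lie above every VAD WT library, and for *Jun*, *Dusp1* and *Socs3* replicates 2 and 4 lie above the other VAD WT libraries.

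Immediate early genes, transcribed within minutes of a stimulus, and AP-1 subunits were called higher in 19 of 21 members and lower in none, with a median log2 fold change of 1.24. *Jun* had values of 988, 3231, 983, 3167 and 1015 in VAD WT and of 6666, 6591, 7356, 7054 and 6988 in VAS Stra6-/-, giving a log2 fold change of 2.12 (SE 0.26, adjusted p = 2.12e-06, limma). *Dusp1*, a phosphatase of MAP kinases, stood at 677, 1998, 629, 2088 and 754 and at 4912, 4501, 4502, 4698 and 4811, a log2 fold change of 2.14 (SE 0.25, adjusted p = 1.22e-06, limma). In these genes, as in *Fos*, *Egr1* and *Nr4a1*, VAD WT replicates 2 and 4 were higher than replicates 1, 3 and 5. *Fos* was 691, 2581, 587, 2699 and 720.1 in VAD WT against 2887 to 3078 in VAS Stra6-/-, so that the difference was 2.16 against replicates 1, 3 and 5 and 0.17 against replicates 2 and 4. *Nr4a1* was not called over all 5, at 0.90. It was 2.11 and -0.91 against the 2 sets, which is a turn in sign. *Egr1* was called over all 5 at 1.71 but not against replicates 2 and 4, at 0.13. *Egr2* and *Klf2* reached 2.75 and 0.13, of which *Egr2* was called at low values.

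Several members lay above every VAD WT library of either set. *Atf3* had values of 68.4, 268, 121, 332 and 100.1 in VAD WT and of 831, 831, 826, 912 and 768 in VAS Stra6-/-, giving a log2 fold change of 2.47 (SE 0.28, adjusted p = 6.78e-07, limma). *Klf4*, a factor of surface epithelia, stood at 7520.4, 3184, 7074, 3200.2 and 7625 and at 11593, 11626, 12152, 11689.5 and 11891, a log2 fold change of 1.16 (SE 0.20, adjusted p = 9.70e-05, limma). *Myc* and *Klf6* rose by 1.24 and 0.96. *Fosl1*, the AP-1 subunit FRA1 on chromosome 19, 5447547 to 5455946 of GRCm38, had values of 0, 24.7, 0, 14.6 and 0 in VAD WT and of 222, 237, 240.0, 215 and 256 in VAS Stra6-/-. It was among the genes with the largest rise at 6.15 (SE 0.81, adjusted p = 4.88e-06, limma), a value that depends on the added 1 because 3 VAD WT libraries had no read. All 21 members were called higher against replicates 1, 3 and 5, and against replicates 2 and 4, 16 were higher and 2 lower.

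The stress response of the endoplasmic reticulum had 7 of 12 members called higher and 2 lower. Set by set the counts were 8 higher and 2 lower for replicates 1, 3 and 5, and 6 higher and 2 lower for replicates 2 and 4. *Hspa5*, the chaperone BiP, had values of 6007 to 6889 in VAD WT and of 10059.5 to 10827 in VAS Stra6-/- and rose by 0.72 (SE 0.07, adjusted p = 3.35e-08, limma). *Dnajb9*, its cochaperone, rose by 1.19. *Atf4* rose by 0.57. The members called lower were *Ddit3*, which encodes CHOP, and *Trib3*, with log2 fold changes of -0.32 and -0.80. Antioxidant and NRF2 targets were called higher in 7 of 14 and lower in 1. Of these targets, 8 higher and 3 lower were called against replicates 1, 3 and 5, and against replicates 2 and 4, 9 higher and 2 lower. *Hmox1*, heme oxygenase, stood at 134, 258, 170.3, 300.4 and 181 in VAD WT and at 482, 464, 521, 503 and 561 in VAS Stra6-/-, giving a log2 fold change of 1.33 (SE 0.16, adjusted p = 1.05e-06, limma). *Slc7a11*, the cystine transporter, and *Txnrd1*, thioredoxin reductase, rose by 1.27 and 1.18 without overlap, whereas *Nqo1* and *Gclm* differed by 0.01 and -0.08 and were not called.

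The IL-6 family of cytokines and receptors had 7 of 13 members called higher and none lower. By set 10 higher and 1 lower were called against replicates 1, 3 and 5, and 6 higher and 1 lower against replicates 2 and 4. *Il6ra*, the receptor of IL-6, had values of 27.1, 42.2, 35.5, 56.5 and 36.4 in VAD WT and of 156, 161, 139, 153 and 163 in VAS Stra6-/-, giving a log2 fold change of 1.98 (SE 0.36, adjusted p = 2.10e-04, limma). *Stat3*, the factor that the receptors activate, stood at 1537, 2302, 1509.7, 2464 and 1857 and at 4007, 3985, 4038, 4346 and 4068, a log2 fold change of 1.11 (SE 0.11, adjusted p = 7.00e-08, limma), and its target *Socs3* at 165, 513, 89.4, 441 and 194 and at 636, 687, 719, 686 and 705. *Osmr*, the oncostatin M receptor, rose by 1.13. The ligands were low: *Il6* had values of 0, 7.21, 0, 0.856 and 0 in VAD WT and of 10.2, 14.3, 27.5, 4.22 and 0 in VAS Stra6-/- and was not called, nor was *Osm*, with at most 28.4 and 24.4. The receptor genes *Il6ra*, *Il6st*, *Lifr* and *Osmr* thus passed the test and *Cntfr* did not, and of the ligands *Lif* passed, at 1.09.

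Fatty acid oxidation genes and PPAR targets were called higher in 8 of 14 members. The sets gave 8 higher and 2 lower (replicates 1, 3 and 5) and 7 higher and 1 lower (replicates 2 and 4). *Angptl4*, an inhibitor of lipoprotein lipase, had values of 251, 607, 262, 574 and 328 in VAD WT and of 878, 881, 868, 903 and 813 in VAS Stra6-/-, giving a log2 fold change of 1.20 (SE 0.19, adjusted p = 4.64e-05, limma). *Pdk4*, which holds back pyruvate oxidation, stood at 74.3, 229, 68.1, 225 and 74.1 and at 453, 363, 421, 348 and 304, a log2 fold change of 1.70 (SE 0.30, adjusted p = 1.36e-04, limma). Beside VAS WT the log2 differences of these genes were 2.06 and 2.39 in the knockout and 0.86 and 0.68 in VAD WT, of which the last was not called. *Cpt1a*, *Acadm* and *Vnn1* were not called, with -0.03, -0.15 and -0.10. Cholesterol synthesis genes were called higher in 11 of 17 and lower in none. *Hmgcs1*, an early enzyme of the pathway, had values of 6323, 3805, 5839, 3624 and 5818 and 6576, 6477, 6949, 6240.4 and 6706, a log2 fold change of 0.41 (SE 0.12, adjusted p = 0.0112, limma) with overlapping ranges, being 0.14 against replicates 1, 3 and 5 and 0.83 against replicates 2 and 4. *Srebf2*, which drives the pathway, rose by 1.18. Of the cholesterol list 9 were called higher and 4 lower against replicates 1, 3 and 5, and all 17 were higher against replicates 2 and 4. Fatty acid synthesis genes gave 4 higher and 2 lower of 9, with *Fasn* at 0.76. These were 5 higher and 2 lower against replicates 1, 3 and 5, and 5 higher and 1 lower against replicates 2 and 4. Glucose transport and glycolysis had 2 higher and 1 lower of 13 over all 5, but 10 higher and 1 lower against replicates 1, 3 and 5, with a median of 0.57, and 1 higher and 9 lower against replicates 2 and 4, with a median of -0.30. *Slc2a1*, the glucose transporter of the barrier, had values of 4218, 5311, 4291, 5668 and 4543 in VAD WT and of 7256, 7327, 7386, 7634 and 7122 in VAS Stra6-/- and rose by 0.62.

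Clock genes were called higher in 5 of 16 and lower in 1, *Arntl*, the gene of BMAL1, which fell by 0.67. Beside replicates 1, 3 and 5, 10 higher and 3 lower of the clock genes were called, and beside replicates 2 and 4, 5 higher and 6 lower. *Per2* and *Cry1*, repressors of the clock, had log2 fold changes of 1.14 and 0.99 without overlap: *Per2* stood at 625, 882, 644, 869.6 and 651 in VAD WT and at 1589.7, 1586, 1509, 1718 and 1578 in VAS Stra6-/-. *Dbp* and *Nr1d1*, outputs of the clock, were not called, at -0.21 and -0.34. The hour of dissection is not given in the sources used here.

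Epithelial genes of the ocular surface were measured because the genes with the most reads were among them. Surface epithelium genes were called higher in 14 of 22 and lower in none, with a median log2 fold change of 0.77, and none of the 6 corneal genes was called by limma. The surface epithelium counts were 13 higher and 2 lower against replicates 1, 3 and 5, and 21 higher and 0 lower against replicates 2 and 4. *Krt12*, the keratin of corneal epithelium, had values of 400653, 114762, 381262, 113908 and 384665 in VAD WT and of 275953, 271708, 278386, 278383 and 283743 in VAS Stra6-/-, so that the knockout lay between the VAD WT sets. Against replicates 1, 3 and 5, all 6 corneal genes were called lower and against replicates 2 and 4, all 6 higher, so the knockout lay between the sets in each of them. *Krt14*, a keratin of basal cells, stood at 15226, 11959, 14512, 11781 and 14950.4 and at 29810.5, 29571, 28907, 30907 and 31039.7, a log2 fold change of 1.14 (SE 0.09, adjusted p = 6.03e-09, limma). *Krt6a*, which keratinocytes express on injury, stood at 48396, 30093, 46782, 30669.7 and 48816 and at 94686, 92972, 91893, 96024 and 97338, a log2 fold change of 1.24 (SE 0.13, adjusted p = 1.93e-07, limma). Keratin paralogs share sequence, so their reads may be split between genes. In both keratins the knockout was higher than every VAD WT library, including replicates 1, 3 and 5, in which *Krt12* was higher than in the knockout.

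Genes of the cornified envelope, the sheath of keratinizing cells, were called higher in 8 of 16 and lower in none. Cornified envelope genes numbered 7 higher and 2 lower against replicates 1, 3 and 5, and 8 higher and 0 lower against replicates 2 and 4. *Sprr1b* had no read in any VAD WT library and values of 98.5, 98.8, 91.5, 98.0 and 113 in VAS Stra6-/-. Set against a floor of 3 reads per library, it was at least 28.8-fold higher in the knockout. *Sprr1a* stood at 279, 165, 236, 93.3 and 313 in VAD WT and at 1714, 1709.8, 1742, 1729 and 1852 in VAS Stra6-/-, giving a log2 fold change of 3.12 (SE 0.22, adjusted p = 8.96e-10, limma). *Cdsn*, of corneodesmosomes, rose by 2.42. *Tgm1*, the transglutaminase that cross-links the envelope, had values of 1074, 837, 958, 804 and 931 and 2350.5, 2368, 2357, 2380.0 and 2481, a log2 fold change of 1.38 (SE 0.09, adjusted p = 1.35e-10, limma). *Ivl*, *Lor*, *Krt1* and *Krt10*, which mark the epidermis, were not called, with log2 fold changes of 0.53, -0.58, -0.70 and 0.03. *Sprr2d* and *Sprr3* had values of at most 10.2 and are not described further. The summed level of the list was 0.61 to 0.66 in replicates 1, 3 and 5, -0.90 to -0.77 in replicates 2 and 4 and 0.14 to 0.19 in the knockout, as log2 difference from VAS WT. *Calml3*, its most abundant member, was not called.

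Hemidesmosome and desmosome genes were called higher for the most part. All 9 hemidesmosome and epithelial laminin genes, 9 of 12 desmosome genes and 7 of 15 tight junction genes were called higher, and 1 of the last, *Cldn5* of endothelium, lower. *Dsg3*, a desmoglein of stratified epithelium, had values of 1314, 1483, 1179, 1606 and 1243 in VAD WT and of 6781, 6888, 7504, 6809 and 6770.2 in VAS Stra6-/-, giving a log2 fold change of 2.36 (SE 0.13, adjusted p = 2.23e-11, limma). *Dsp*, desmoplakin, stood at 18816, 12076, 18266, 12372 and 18056 and at 39837, 39859, 43394, 40024 and 41874, a log2 fold change of 1.39 (SE 0.11, adjusted p = 8.18e-09, limma). *Itga6*, an integrin of hemidesmosomes, stood at 2669, 2165, 2719, 2179.9 and 2749 and at 6694, 6719.5, 6914, 6441 and 6588, a log2 fold change of 1.43 (SE 0.09, adjusted p = 2.13e-10, limma). In these 3 genes the VAD WT sets lay within a factor of 2 of each other, and each knockout library exceeded them.

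The desmosome genes *Dsc2*, *Dsc3* and *Pkp1* rose by 1.18, 0.72 and 1.11, and *Perp*, *Pkp2* and *Dsc1* were not called. Among the claudins *Cldn4* had values of 4104, 3334, 4199.8, 3367 and 4235 in VAD WT and of 8537, 8524, 7976, 9385 and 8943 in VAS Stra6-/-, giving a log2 fold change of 1.18 (SE 0.10, adjusted p = 1.01e-08, limma), and *Cldn1* rose by 1.62. *Cldn3* and *Cldn7* were not called, at 0.34 and 0.42, and *Cldn19*, the main claudin of RPE, was not either. *Tjp1*, of the plaque protein ZO-1, had values of 3303, 2389, 3373, 2391 and 3276 and 4266, 4366, 4893, 4268 and 4633 and rose by 0.62 (SE 0.10, adjusted p = 5.16e-05, limma). With replicates 1, 3 and 5 alone 7 hemidesmosome, 8 desmosome and 6 tight junction genes were called higher and 0, 1 and 3 lower, against the 29.9% and 23.4% of all genes. With replicates 2 and 4 alone 9, 11 and 14 were called higher and 0, 0 and 1 lower, against 20.5% and 17.0%. The desmosome median was 0.58 in the first and 1.43 in the second.

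Mucins and secretions of the ocular surface were partly higher too. *Muc4*, a membrane mucin, had values of 18410.1, 8578, 17483, 8728 and 18481 in VAD WT and of 36031, 37506, 41576, 37242 and 36961 in VAS Stra6-/-, giving a log2 fold change of 1.49 (SE 0.18, adjusted p = 1.73e-06, limma). *Muc1* stood at 803, 542, 752, 472 and 688 and at 1884, 2209, 2123, 2008 and 2031, against 2673 ± 91.6 (SD, n = 5) in VAS WT, so that VAD WT was the low group. *Muc5ac*, the gel-forming mucin of goblet cells, was low and not called, at 0, 56.7, 15.6, 73.6 and 0 and 34.5, 31.8, 61.0, 35.5 and 35.6. Of 13 goblet and mucin genes 4 were called higher, and of 10 defence genes 5. For mucins the sets gave 6 higher and 0 lower (replicates 1, 3 and 5) and 4 higher and 2 lower (replicates 2 and 4), and for defence genes 6 higher and 1 lower and 6 higher and 1 lower. *Olfm4*, a secreted glycoprotein of epithelium and neutrophils, had values of 7.07, 42.2, 15.6, 39.4 and 16.9 and 283, 239, 266, 253 and 241, a log2 fold change of 3.61 (SE 0.70, adjusted p = 3.88e-04, limma). *Ltf*, lactoferrin, stood at 92.0, 94.8, 89.4, 107 and 109 and at 406, 364, 366, 393 and 328, a log2 fold change of 1.91 (SE 0.22, adjusted p = 9.93e-07, limma). *Ltf* was below VAS WT in both groups, with log2 differences of -1.19 in the knockout and -3.10 in VAD WT. *Lcn2*, lipocalin 2, was 1.01 above it in the knockout and rose by 1.89 between the groups.

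Muscle genes were called higher in all 18 members, also against each set of VAD WT libraries alone, with the highest list median, 2.31. *Acta1*, skeletal actin, had values of 324, 2264, 363, 2235 and 296 in VAD WT and of 5375, 5539, 5293, 5914 and 5432 in VAS Stra6-/-, giving a log2 fold change of 2.96 (SE 0.43, adjusted p = 1.56e-05, limma). *Ckm*, muscle creatine kinase, stood at 791, 2427, 806, 2284 and 693 and at 5983, 5749, 5183, 6429.6 and 5791, a log2 fold change of 2.28 (SE 0.26, adjusted p = 7.09e-07, limma). The summed level of the list, as log2 difference from VAS WT, was 1.24 to 1.38 in VAS Stra6-/-, -1.65 to -1.62 in VAD WT replicates 1, 3 and 5 and 0.06 to 0.17 in replicates 2 and 4. The part of muscle RNA in other results was not tested.

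Collagens and lens genes were mostly called lower. Collagens were called lower in 8 of 10 and higher in none, with a median log2 fold change of -1.20. The median beside VAS WT was -0.23 in the knockout and 0.83 in VAD WT, so here VAD WT was the group farther from the reference. *Col1a1* had values of 11869, 34989.9, 12984, 38362 and 11859 in VAD WT and of 6153, 6406, 6427, 6832 and 6442 in VAS Stra6-/-, giving a log2 fold change of -1.56 (SE 0.25, adjusted p = 5.22e-05, limma). *Col6a3* stood at 2423, 3236, 2333, 3409 and 2663 and at 958, 1013, 1044, 1073 and 1137, a log2 fold change of -1.41 (SE 0.09, adjusted p = 1.61e-10, limma). Replicates 2 and 4 had about 3 times the *Col1a1* of the other VAD WT libraries, and *Col6a3* and *Col5a2* were within a factor of 1.5 over the 5. *Col5a2* fell by 1.16. Beside replicates 1, 3 and 5 alone 8 collagens were called lower and 2, *Col12a1* and *Col14a1*, higher. Beside replicates 2 and 4 alone all 10 were called lower. Small leucine-rich proteoglycans had 5 of 10 called lower over all 5, but 2 lower and 3 higher against replicates 1, 3 and 5, and all 10 lower against replicates 2 and 4. *Kera*, keratocan of the corneal stroma, was the exception in size, at 2721, 892, 2716, 809 and 2620.4 in VAD WT and 194, 275, 215, 193 and 253 in VAS Stra6-/-, giving a log2 fold change of -2.92 (SE 0.27, adjusted p = 4.82e-08, limma). Tendon and cartilage genes had 6 of 14 lower, led by *Col2a1* at -1.33 and *Thbs2* at -1.25, whereas *Thbs4*, *Chad* and *Comp* were over 7 times as high in VAD WT replicates 2 and 4 as in the other 3 and were not called by limma. In edgeR *Thbs4* and *Comp* were called lower, at -1.50 (adjusted p = 0.0375) and -1.45 (adjusted p = 0.0265), and DESeq2 called both lower too. This list had 5 higher and 5 lower against replicates 1, 3 and 5, and 0 higher and 11 lower against replicates 2 and 4. Matrix proteases and inhibitors had 4 called higher and 3 lower of 14. The sets went different ways, with 8 higher and 2 lower and a median of 0.93 against replicates 1, 3 and 5, and 0 higher and 7 lower and a median of -0.32 against replicates 2 and 4. *Timp3* had a log2 fold change of 0.96 and *Mmp3* of -1.21, both overlapping, and neither was called without some single libraries: *Timp3* was at 0.74 without VAD WT replicate 1 and *Mmp3* at -0.79 without replicate 2. In the count tests *Timp3* was not called, at 0.56 in edgeR (adjusted p = 0.210) and 0.58 in DESeq2 (adjusted p = 0.211).

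Lens genes, most of them crystallins, were called lower in 10 of 13 members, with a median of -1.43. *Crygc* had values of 321, 38.1, 206, 71.9 and 291 in VAD WT and of 30.5, 23.0, 18.3, 13.5 and 16.9 in VAS Stra6-/-, and *Cryaa* of 2062, 462, 1988, 545 and 2095 and 549.5, 510.3, 499, 456 and 541. For *Cryaa* VAD WT replicates 2 and 4 lay within the knockout range, and the difference was -2.0 against replicates 1, 3 and 5 and 0.02 against replicates 2 and 4, where 5 lens genes were called lower and 2 higher. Against replicates 1, 3 and 5, 11 lens genes were called lower and 0 higher. Myelin and Schwann cell genes had 6 of 9 called lower and 1, *Pmp22*, higher. Beside replicates 1, 3 and 5 alone 2 higher and 6 lower of these were called, and beside replicates 2 and 4, 1 higher and 5 lower. *Cnp*, an enzyme of myelin-forming cells, stood at 802, 591, 685, 561 and 854 and at 383, 343, 307, 394 and 354, a log2 fold change of -0.96 (SE 0.12, adjusted p = 4.27e-06, limma), with each knockout library below every VAD WT library.

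Macrophage and microglia genes had 9 of 16 called higher and 2 lower. Their counts were 10 higher and 2 lower for replicates 1, 3 and 5, and 9 higher and 3 lower for replicates 2 and 4. *Lyz2*, lysozyme, had values of 1166, 2711, 956, 2622 and 1149 in VAD WT and of 4423, 4572, 4296, 4790.3 and 4803 in VAS Stra6-/-, giving a log2 fold change of 1.55 (SE 0.21, adjusted p = 5.71e-06, limma). *Cx3cr1*, the fractalkine receptor of microglia and resident macrophages, went the other way, with 266, 84.5, 223, 119 and 292 and 59.9, 43.9, 45.8, 46.5 and 51.5, a log2 fold change of -1.83 (SE 0.28, adjusted p = 3.59e-05, limma). Beside VAS WT its log2 difference was -2.12 in the knockout and -0.29, not called, in VAD WT. *Itgam* rose by 1.15, and *Csf1r* and *Ptprc*, which all these cells share, were not called at 0.10 and 0.38. Interferon genes had 4 of 16 called lower and 1 higher. By set these were 2 higher and 9 lower against replicates 1, 3 and 5, and 2 higher and 2 lower against replicates 2 and 4. *Irf7* stood at 1223, 646, 1141, 632 and 1236 and 539, 568, 435, 469.6 and 546, with a log2 fold change of -0.87 (SE 0.16, adjusted p = 2.35e-04, limma), and *Cxcl10* fell by 1.04. Antigen presentation had 3 higher and 2 lower of 13, and complement 2 and 2 of 13. Antigen presentation gave 4 higher and 3 lower against replicates 1, 3 and 5, and 2 higher and 0 lower against replicates 2 and 4, and complement 6 higher and 2 lower and 2 higher and 5 lower. *Cfp* fell by 0.77, and *C4b* and *H2-D1* rose by 0.32 and 0.25.

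Endothelial genes had 5 of 15 called lower and none higher. *Egfl7* had values of 1309.8, 1619, 1497, 1617 and 1649 in VAD WT and of 746, 637, 705, 713 and 735 in VAS Stra6-/-, giving a log2 fold change of -1.12 (SE 0.08, adjusted p = 6.08e-10, limma). *Cldn5*, the claudin of retinal vessels, stood at 1103, 1458, 1145, 1469 and 1154 and at 847, 799, 639, 944 and 944, a log2 fold change of -0.60 (SE 0.11, adjusted p = 2.00e-04, limma). *Pecam1*, *Cdh5* and *Kdr*, shared by endothelia, were not called, and their VAD WT replicates 2 and 4 lay above, and replicates 1, 3 and 5 below, the knockout. In the test against replicates 1, 3 and 5, 9 members were called higher and 4 lower, and against replicates 2 and 4, none was higher and 14 were lower. No erythrocyte gene was called of 6 (limma). The erythrocyte genes were 5 higher and 0 lower against replicates 1, 3 and 5, and 0 higher and 6 lower against replicates 2 and 4. *Hba-a2*, a globin whose reads can be shared with *Hba-a1*, had values of 2669, 28292, 1776, 23834 and 753 in VAD WT and of 5766 to 7937 in VAS Stra6-/-. None of 10 cell division genes was called over all 5 by limma, with *Mki67* at 1357, 256, 1279.8, 241 and 1516 and 538 to 681. The cell division genes were 0 higher and 7 lower against replicates 1, 3 and 5, and 7 higher and 0 lower against replicates 2 and 4. At an unadjusted p under 0.05, limma passed 1 cell division, 1 corneal and 0 erythrocyte genes. The count tests called 1, 2 and 0 genes of these lists at an adjusted p under 0.05, in edgeR and in DESeq2 alike. *Fabp4*, with the most reads of 8 adipocyte genes, rose by 0.51, and 2 of the list were called higher and 1 lower. Adipocyte genes gave 2 higher and 2 lower beside replicates 1, 3 and 5, and 2 higher and 0 lower beside replicates 2 and 4.

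**Figure D5:**
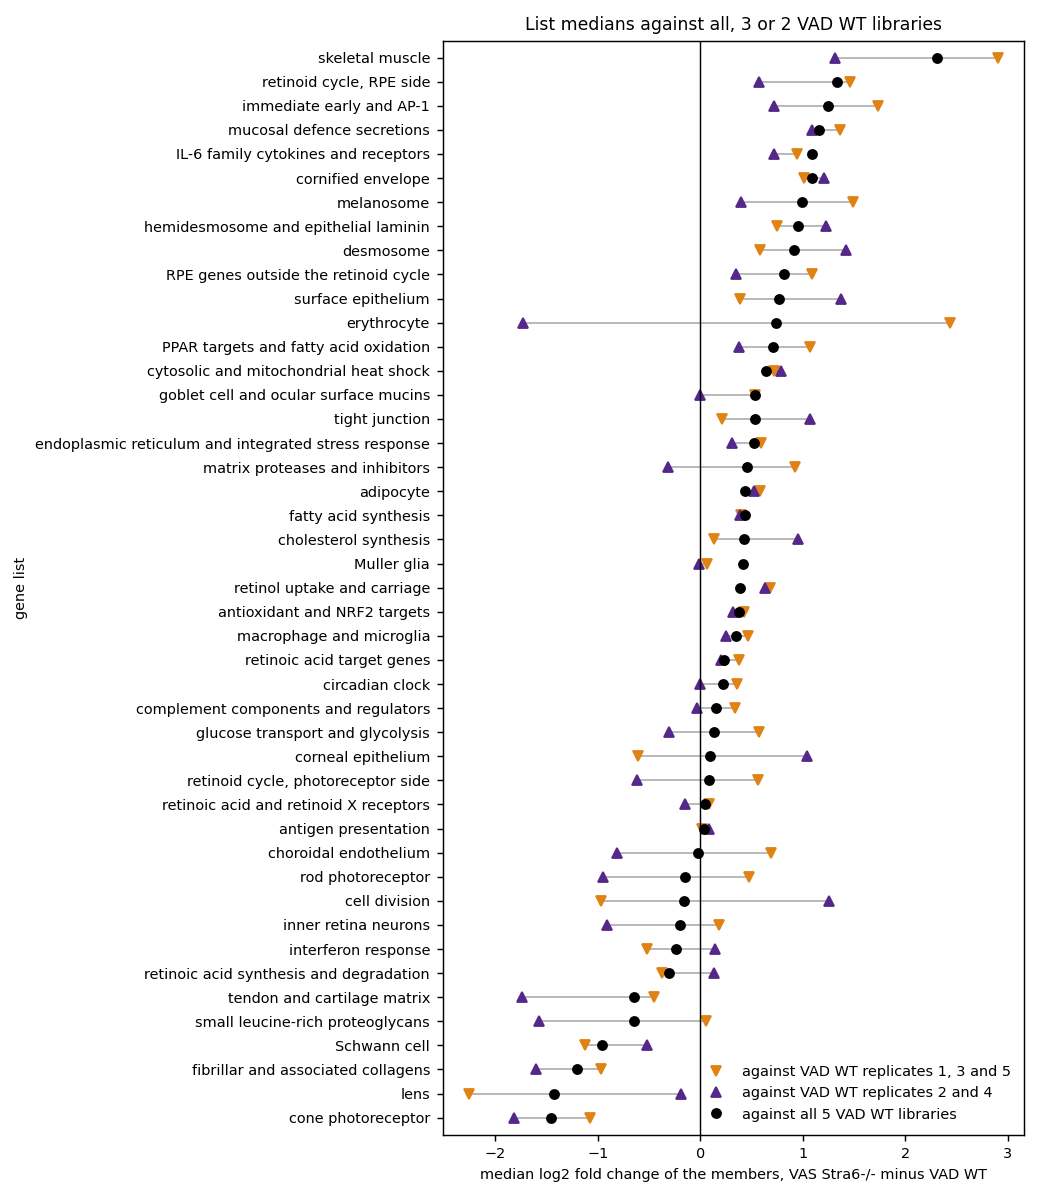
Median log2 fold change of each gene list, VAS Stra6-/- minus VAD WT, against all 5 VAD WT libraries (circles), replicates 1, 3 and 5 (downward triangles) and replicates 2 and 4 (upward triangles). Cone, collagen, heat shock, immediate early, muscle and RPE medians keep their sign, while rod, endothelial, corneal, erythrocyte and cell division medians lie on both sides of 0.

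By the rule of size, the genes with the largest rise among those with a mean of at least 100 in a group and no overlap were *Sprr1b*, *Fosl1*, *Serpine3*, *Hist2h3c1*, *Krt16*, *Plaur*, *Xist*, *Prb1*, *Prpmp5* and *D830031N03Rik*. In DESeq2 *Hist2h3c1*, *Xist* and *D830031N03Rik* were not called, with 3.10 (adjusted p = 0.142), 1.81 (adjusted p = 0.0908) and 1.84 (adjusted p = 0.0765). *Plaur*, the urokinase receptor, had values of 14.1, 197, 0, 184 and 26.0 in VAD WT and of 446, 479.6, 442, 423 and 433 in VAS Stra6-/-, giving a log2 fold change of 4.03 (SE 0.89, adjusted p = 0.00126, limma). *Krt16*, a keratin of activated keratinocytes, stood at 184, 462, 162, 510.1 and 231 and at 6347, 6039, 5881, 6427 and 6601. *Serpine3*, of a serpin family, stood at 24.8, 274, 14.2, 238 and 0 and at 871, 943, 962, 984 and 867. The salivary protein genes *Prb1* and *Prpmp5*, near copies whose reads can be shared, had values of 8.25 to 799 and 3.90 to 80.3 in VAD WT and of 1537 to 1864 and 251 to 299.8 in VAS Stra6-/-. By the same rule the genes that fell most were the Y-linked *Ddx3y*, *Eif2s3y*, *Kdm5d* and *Uty* and *Mobp*, *Rbpjl*, *Crygd*, *Kera*, *Arr3* and *Crygc*. *Mobp*, of oligodendrocyte myelin, had values of 426, 81.4, 407, 105 and 331 in VAD WT and of 4.06, 3.29, 15.3, 8.45 and 18.7 in VAS Stra6-/-, and *Rbpjl* of 222, 53.6, 285, 39.4 and 143 and 3.05, 6.58, 2.03, 7.60 and 2.81.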

How the data were processed

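By the study's account, RNA from the RPE and choroid of 20 mice was sequenced, 1 library per mouse. The deposited table holds normalized values for 24411 genes, a signal that the authors made by dividing gene counts by 1 DESeq2 size factor per library. Per the labels and the study's methods, reads were aligned with STAR 2.5.3a to GRCm38 and counted with RSEM 1.2.30, and the submitters' processing notes name DESeq2 1.32.0. No length scaling was applied, so ranks across genes are of reads and not of transcripts. In 19 libraries every value was a whole multiple of the smallest value (tolerance 0.001), which returned the reads behind it. The remaining library, a VAD Stra6-/- one, has a step too near 1 and was left out of the count tests only.

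Differences were tested with limma 3.58.1 (R 4.3.3) on log2(value + 1). The model held 1 coefficient per group and all 20 libraries, so that the 4 groups shared the estimate of the spread (trend), and p-values were adjusted (Benjamini-Hochberg) over 18807 genes with a total of at least 5 reads. The groups did not spread alike: the median SD of log2 values was 0.428 in VAD WT, 0.144 in VAS Stra6-/- and 0.185 in VAS WT. The shared estimate, and so the SE and p-values, can therefore understate the spread of VAD WT. A fold change on this scale understates that of low genes. Because the values are not raw counts, edgeR 4.0.16 (quasi-likelihood) and DESeq2 1.42.0 on the recovered reads were alternatives, beside TMM rescaling, other pseudocounts (0.5 and 4), other filters (none, or a mean of 10 in a group), array weights, a replicate block, a null of 1, fewer libraries and each library left out. On simulated reads for 18807 genes in this comparison, limma found 98 of 100 genes changed by 1 on the log2 scale and 100 of 100 changed by 2, with 9 false calls. The simulation gave every gene the same dispersion and left low genes unchanged. It held no split among the VAD WT libraries, so these figures do not give the power or the false calls for the real groups. Gene totals of 13331903 to 21790795 reads per library limit the precision of genes with few reads, and the floor of 3 reads covers counting error only.

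The gene lists and the comparison were chosen with earlier results of these data known, so counts of list members are a description. Some lists share members, such as *Lrat* and *Ttr*, so their counts are not separate observations. Of the listed genes, *Rbpr2*, *Muc16* and *Flg* were not found in the table used here, and *Stra8*, *Bpifa1* and *Sprr2h* are among those that did not pass the filter. Summed levels of lists are given as values, and a permutation test designed for them was not used. The genes named are *Stra6*, the sex-linked genes, those the study names, up to 4 members per list with the highest value or the largest change, and the 10 largest changes in each direction with a mean of at least 100 in a group and no overlap. Other members were named after their values were seen, and a few genes that the rule names are not reported here. Promoter windows come from RefSeq tables of GRCm38.p6.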

Additional observations from a re-analysis of the deposited data

Results flagged for a closer look

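On the log2(value + 1) scale, 1 library stood apart from the other 4 of its group by a gap above 0.71 of the group's range (Dixon's critical value for 5 libraries) in 19 of 482 sets of 5 values, over the named genes and the gene lists in both groups. Chance gives about 1 in 20 such sets where the 5 libraries differ by noise alone. Of the 19 sets, 18 were in VAS Stra6-/-, and the one in VAD WT was *Dsc1*, listed at 0 in replicate 5. The rule looks for 1 library apart from the other 4. Where the VAD WT libraries split as described above, no single library stands alone, so the rule can hardly flag one. The count in VAD WT therefore does not show that its libraries were alike, and the 19 of 482 cannot be read against chance.

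VAS Stra6-/- replicate 3 stood apart in 8 genes. It was the highest in the desmosome genes *Dsc2* (normalized value 15774) and *Dsg3* (7504), the mucin genes *Muc4* (41576) and *Muc5ac* (61.0), the receptor gene *Osmr* (3266), the immediate early gene *Egr1* (5316) and the transcription factor genes *Otx2* (1858) and *Tfap2b* (675). Replicate 5 was the highest in *Lcn2* (436), *Sprr1a* (1852) and *Tgm1* (2481) and the lowest in *Cyp26a1* (21.5) and *Lif* (37.5). Replicate 4 was the highest in *Dbp* (3836) and *Stat3* (4346) and the lowest in *Dsc3* (10832). Replicate 1 was the highest in *Gnb3* (822) and *Lrat* (2774). Without the library that stood apart, each of these 19 genes stayed on the same side of the threshold in limma.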

How the results depend on the processing

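No named gene that was called in limma or under the alternative changed sign with TMM rescaling, edgeR, DESeq2, another pseudocount or filter, only the 10 libraries, the replicate block or any 1 library left out. Named genes called in neither, most of them near 0, did: 4 with TMM (*Cntfr*, *Nqo1*, *Otx2* and *Scarb1*), 13 in edgeR or DESeq2, among them *Krt12*, and 22 without some single library. Other changes of sign arose with the choice among VAD WT libraries and with array weights, and their cause was not tested. With the replicate number as a block, 3736 genes were called higher and 2744 lower, and no call of a named gene changed but those of *Hist2h3c1* and *Sprr3*, which were lost. The numbers do not pair the samples: correlations of deviations between same-numbered libraries were 0.000661, 0.0161, -0.00748, -0.0133 and 0.0308, and 2 of 5 libraries matched their own number best. Leaving out each library in turn gave 3436 to 4348 genes higher and 2380 to 3364 lower. Among list medians that moved by more than the replicate SD, values ranged from 0.47 to 0.57 for endoplasmic reticulum stress, 0.28 to 0.44 for antioxidant targets and 0.31 to 0.45 for macrophages. Medians that crossed 0 were those of cell division (-0.47 to 0.13), choroidal endothelium (-0.19 to 0.31), corneal epithelium (-0.17 to 0.26), inner retina neurons (-0.36 to 0.023), retinoic acid and retinoid X receptors (-0.019 to 0.14), photoreceptor retinoid genes (-0.036 to 0.27) and rod photoreceptor (-0.30 to 0.081), and that of erythrocyte genes went from 0.18 to 1.39. Calls were lost without some single library for *Aldh1a1*, *Cyp26b1*, *Hist2h3c1*, *Mmp3*, *Rdh12*, *Sprr3*, *Stra6* and *Timp3*, and gained for *Acadm*, *Aqp4*, *Cdh5*, *Csf1r*, *Dhrs3*, *Gfap*, *Hspa4l*, *Hspe1*, *Il6*, *Krt1*, *Muc5ac*, *Nr1d1*, *Nr4a1*, *Osm*, *Pecam1*, *Rarb* and *Serpinf1*. With only the 10 libraries, the spread came from fewer samples and from these groups alone, VAD WT among them. Then 2980 genes were called higher and 1913 lower, and the calls of *Aldh1a1*, *Cfp*, *Clic6*, *Cryaa*, *Cyp26b1*, *D830031N03Rik*, *Dsc3*, *Egr1*, *Egr2*, *Fabp4*, *Fos*, *Hmgcs1*, *Il6st*, *Mitf*, *Mmp3*, *Rarg*, *Rdh12*, *Rlbp1*, *Sprr3*, *Stra6* and *Timp3* were lost.

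Against replicates 1, 3 and 5 of VAD WT, 4399 genes were called lower, 2052 higher and 1237 lower beyond a log2 fold change of 1, and 739 and 205 beyond 2. List medians are given here and below only where they moved by more than the replicate SD of the list. That SD holds the split of VAD WT, so some medians that changed sign do not pass it. Among these were rod photoreceptor 0.47, corneal epithelium -0.60 and small leucine-rich proteoglycans 0.057, which had the opposite sign over all 5. Medians that passed were retinol uptake and carriage 0.68, Muller glia 0.070, cytosolic and mitochondrial heat shock 0.72, endoplasmic reticulum and integrated stress response 0.59, PPAR targets and fatty acid oxidation 1.07, macrophage and microglia 0.47, complement components and regulators 0.34 and choroidal endothelium 0.69. Log2 fold changes that turned in sign, for genes called over all 5 or against this set, were *Calml3* -0.57, *Chad* 1.27, *Col12a1* 1.08, *Comp* 0.59, *Hspb1* -0.43, *Kdr* 0.91, *Krt12* -0.49, *Krt5* -0.28, *Nqo1* -0.28, *Pde6b* 0.23 and *Thbs4* 0.92. Some named genes called in neither fit turned too, among them *Cyp26a1* at 0.38 and *Opn1mw* at 0.14. Against replicates 2 and 4, 935 genes were lower beyond 1, 177 higher and 133 lower beyond 2, and 162 listed genes were called lower. List medians there were retinol uptake and carriage 0.63, RPE retinoid cycle 0.57, retinoic acid synthesis and degradation 0.13, retinoic acid and retinoid X receptors -0.15, rod photoreceptor -0.95, inner retina neurons -0.91, Muller glia -0.011, RPE genes outside the retinoid cycle 0.35, melanosome 0.40 and cytosolic and mitochondrial heat shock 0.78. Further medians were endoplasmic reticulum and integrated stress response 0.31, antioxidant and NRF2 targets 0.31, PPAR targets and fatty acid oxidation 0.38, IL-6 family cytokines and receptors 0.72, macrophage and microglia 0.25, interferon response 0.14, complement components and regulators -0.030, choroidal endothelium -0.81, surface epithelium 1.37 and desmosome 1.43. The remaining medians were tight junction 1.07, small leucine-rich proteoglycans -1.58, tendon and cartilage matrix -1.74, matrix proteases and inhibitors -0.32, skeletal muscle 1.31, lens -0.19, Schwann cell -0.52, erythrocyte -1.73, cholesterol synthesis 0.95 and cell division 1.25. Some named genes called in neither fit turned there, among them *Muc5ac* at -0.73. Log2 fold changes that turned there, for genes called over all 5 or against this set, were *Acadm* 0.26, *Aldh1a1* 0.071, *Cdh5* -0.65, *Cldn19* 0.55, *Clic6* -0.069, *Cntfr* -0.65, *Col14a1* -1.18, *Cryaa* 0.023, *Cyp26b1* -0.27, *Hba-a1* -1.42, *Hba-a2* -1.86 and *Hspe1* 0.27. Those of further genes were *Klf2* -0.50, *Mitf* -0.038, *Mki67* 1.25, *Nr4a1* -0.91, *Otx2* -0.21, *Pecam1* -0.57, *Perp* 0.85, *Scarb1* -0.54, *Slc24a2* -0.79, *Thrb* -0.51, *Timp3* -0.30 and *Vnn1* 0.90.

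Array weights called 1769 genes higher and 1028 lower beyond 1 and 625 and 162 beyond 2. Weighted list medians were retinol uptake and carriage 0.62, Muller glia 0.12, endoplasmic reticulum and integrated stress response 0.58, antioxidant and NRF2 targets 0.44, PPAR targets and fatty acid oxidation 1.04 and macrophage and microglia 0.46. With weights the fold changes that turned, for genes called with or without weights, were *Calml3* -0.44, *Chad* 0.96, *Col12a1* 0.84, *Hspb1* -0.31, *Kdr* 0.74, *Nqo1* -0.23 and *Thbs4* 0.64. Some named genes called in neither fit turned too, among them *Krt12* at -0.34. Beyond 2, edgeR called 172 genes higher and 114 lower, and DESeq2 162 and 113. Medians in edgeR were endoplasmic reticulum and integrated stress response 0.47, antioxidant and NRF2 targets 0.27, complement components and regulators -0.082 and fatty acid synthesis 0.33. Those in DESeq2 were antioxidant and NRF2 targets 0.30, complement components and regulators -0.064 and fatty acid synthesis 0.35. Both called *Aqp4*, *Comp*, *Cyp26a1*, *Krt1*, *Nr1d1*, *Serpinf1* and *Thbs4* in addition, each lower in VAS Stra6-/-. In both, the calls of *Clic6*, *Cyp26b1*, *D830031N03Rik*, *Hist2h3c1*, *Timp3* and *Xist* were lost, and in edgeR also that of *Sprr3*. A pseudocount of 4 left 150 genes higher and 25 lower beyond 2, with a cornified envelope median of 0.65. Against a null of 1, 119 genes were called higher and 31 lower, all beyond 1 by design, and 68 and 13 beyond 2. As mean of log2 values, the list levels differed by 0.72 for RPE genes outside the retinoid cycle, 0.26 for macrophages and 0.56 for mucins. List sums are given as values, and no permutation test of them was run. Values of a few reads per library, such as those of *Il6* and *Sprr3*, are limited by depth.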

Other observations

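The study names 26 genes of barrier, junction, matrix, lipid and visual function for its other comparisons. Between VAS Stra6-/- and VAD WT, 18 of them were called higher and 4 lower (limma), with a median log2 fold change of 0.81 beside 0.03 over all genes. The study picked these genes on the same libraries, so their direction is not independent evidence.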
